A study of Mus musculus with 6 samples.

Results

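The CD209 genes encode the SIGN lectins, and 6 of them were followed here: Cd209f (ENSMUSG00000051906), Cd209a (ENSMUSG00000031494), Cd209b (ENSMUSG00000065987), Cd209c (ENSMUSG00000040165), Cd209d (ENSMUSG00000031495) and Cd209e (ENSMUSG00000040197). They were chosen by Ensembl gene identifier, and each was represented by 1 row among the 27835 rows of the deposited expression table, so that 6 of 6 members were found and none was removed by a filter. The member list pairs each identifier with its symbol, and neither the deposited table nor the reference table used here offers an independent pairing. Cd209f heads the list because its mean value had the second largest fall of any row in monocyte-derived relative to embryonic Kupffer cells. That contrast chose it, and its values are given as a description without a test. The other 5 entered by gene family and not by their own values.

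Kupffer cells are liver macrophages that sit in the sinusoids and take up particles from the blood. The study set monocyte-derived Kupffer cells (mKC), which descend from circulating blood monocytes, against embryonic Kupffer cells (eKC), which settle in the liver before birth, on Affymetrix Mouse Gene 2.0 ST arrays. Both populations were CD45+ and CD11b- and carried the macrophage antigen encoded by Adgre1. The mKC were sorted as GFP+ and tdTomato-, and the eKC were sorted as GFP- and tdTomato+. Each of 3 mice gave 1 sample of each population, 6 arrays in all, with 50000 cells per sample and 2 ng of total RNA entering the labelling reaction. All mice were C57Bl/6 with the genotype written as CX3CR1-CreERT+/+ Stopfl/fl tdTomato, in which Cre is tied to CX3CR1 and tdTomato lies behind a floxed stop, and all were sRBC-treated, an abbreviation the labels do not spell out. The labels used here state neither age nor the time at which Cre was activated, and no untreated mice were analysed. The sort gate alone defines origin here, so any other property that differs between the gates cannot be told apart from it. In these pooled cells fewer expressing cells and less RNA per cell cannot be told apart either.

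SIGN lectins are type II membrane proteins of the C-type lectin family. In several of them, though not in every mouse member, the extracellular lectin domain binds mannose- and fucose-bearing glycans in a calcium-dependent way. Such binding lets macrophages and dendritic cells capture microbes and glycoproteins. The family takes its name from human DC-SIGN, a lectin of dendritic cells, and in the mouse it has expanded by duplication into a gene cluster whose members are known by both CD209 letters and SIGNR numbers. Cd209f is also called SIGNR8 in the reference annotation, Cd209a SIGNR5 or CIRE, Cd209b SIGNR1, Cd209c SIGNR2, Cd209d SIGNR3 and Cd209e SIGNR4. Cd209b is known from marginal zone macrophages of the spleen, where it takes up bacterial capsular polysaccharides, and Cd209a is widely used as a marker of monocyte-derived dendritic cells.

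In the RefSeq annotation of GRCm38.p6 all 6 members lie on chromosome 8 in the order Cd209a, Cd209e, Cd209d, Cd209b, Cd209c and Cd209f. Cd209f stands at one end of this row of genes. Between Cd209c and Cd209f there are 5 annotated genes, of which 4 are pseudogenes, 1 is a lncRNA and 0 are protein-coding, and the next gene beyond Cd209f is Cd209g, a further member of the family that was not analysed here. Upstream sequences from RefSeq matched 6 of 6 members by symbol. The 250 bases before the listed transcription start are printed for Cd209f, whose difference between the populations was large, and for Cd209a and Cd209b, the relatives with the largest differences in each direction. They are chr8:4105765-4106014 for Cd209f, chr8:3748985-3749234 for Cd209a and chr8:3926842-3927091 for Cd209b, all on the minus strand of GRCm38.p6. Capitals mark matches on either strand to CCGGAA, a site of many ETS factors (read as TTCCGG on the other strand). They also mark matches to TGAGTCA, the AP-1 site that is also the core of the MAF recognition element. The last motif is TATAAA, the letters of the TATA box (read as TTTATA on the other strand). Matches were marked at any position, and a match of letters does not show a working site.
Cd209f: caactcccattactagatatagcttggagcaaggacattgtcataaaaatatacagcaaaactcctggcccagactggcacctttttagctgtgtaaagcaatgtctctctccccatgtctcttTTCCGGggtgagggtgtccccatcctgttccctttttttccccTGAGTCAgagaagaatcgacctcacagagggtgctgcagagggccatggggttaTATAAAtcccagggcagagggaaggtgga
Cd209a: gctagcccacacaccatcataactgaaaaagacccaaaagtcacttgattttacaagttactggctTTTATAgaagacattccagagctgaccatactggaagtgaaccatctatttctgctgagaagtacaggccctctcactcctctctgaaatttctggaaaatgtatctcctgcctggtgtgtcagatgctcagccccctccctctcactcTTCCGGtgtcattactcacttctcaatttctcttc
Cd209b: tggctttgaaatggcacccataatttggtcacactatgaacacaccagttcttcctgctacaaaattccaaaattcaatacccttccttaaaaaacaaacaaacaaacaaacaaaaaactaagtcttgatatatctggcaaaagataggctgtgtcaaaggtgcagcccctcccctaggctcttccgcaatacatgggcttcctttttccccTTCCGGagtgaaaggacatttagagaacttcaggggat

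The windows of Cd209f and its relatives had little exact sequence in common. The longest run of identical bases between Cd209f and a relative was 10 bases, with Cd209b, and it was 7 or 8 bases with each of the others. The run shared by unrelated windows was not computed, so these lengths do not set any relative apart. Similarity broken by mismatches was not measured. With the neighbour Cd209g the run was 154 bases long and reached the last base before the Cd209f start. Over all other genes with a window of this length, Cd209g was the only 1 that shared a run of 20 or more bases with Cd209f in the same orientation. Cd209f and Cd209g are therefore close copies at least at this end, and whether probes of the Cd209f row also detect Cd209g RNA was not tested.

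The motif letters, chosen after the windows had been read, do not overlap one another in these windows. Cd209f holds TTCCGG from 126 to 121 bases before its start, TGAGTCA from 83 to 77 bases before it and TATAAA from 29 to 24 bases before it. Among the 6 members, CCGGAA was found in 4 (Cd209f, Cd209a, Cd209b and Cd209e), TATAAA in 2 (Cd209f and Cd209a) and TGAGTCA in Cd209f alone. The TATAAA match of Cd209a is on the opposite strand, from 184 to 179 bases before its start. Of all 32851 windows of this length in the reference, 12.0% hold CCGGAA, 12.4% hold TATAAA and 4.46% hold TGAGTCA. All of these motifs together occur in 10 windows, or 0.0304%, among them those of Cd209f and Cd209g. Because the motifs were chosen after these windows had been read, that share does not measure how unusual Cd209f is. The matches in Cd209g lie within the run of 154 bases it shares with Cd209f and are not a separate case. The listed start lies inside the annotated gene span by 74 bases for Cd209f, 7883 bases for Cd209c, 49 bases for Cd209d and 490 bases for Cd209g, so other starts of these genes were not searched.

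Arrays were on a common scale, with medians between 5.21 and 5.28 and lower quartiles between 3.97 and 4.03 (log2 intensity). In a principal component analysis of all rows, the first component, with 45.2% of the variance, separated mKC from eKC. The arrays of animal 2 stood apart on later components, where its mKC array scored -24.4 and the other mKC arrays 10.8 and 13.2 (component 3), and its eKC array scored 25.6 and the other eKC arrays -12.9 and -12.4 (component 2). In 5 of the 6 members (Cd209c was the exception) the eKC array of animal 2 gave the lowest of the 3 eKC values, where it did so in 35.8% of all features. Values without animal 2 are therefore given beside the results. The table carries no gene symbols, so markers of Kupffer cells, monocytes, dendritic cells or other cell types could not be read from it to check the labels.

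Cd209f was high in eKC and low in mKC in all 3 animals. Its value was 3.76, 4.16 and 4.40 in the mKC arrays of animals 1, 2 and 3, against 9.46, 8.96 and 9.32 in the eKC arrays of the same animals (log2 intensity). Every mKC value lay below every eKC value by a wide margin, in a gene chosen for its fall in this contrast. Such a lack of overlap, with mKC lower, was seen in 8.82% of all features. The mean was 4.11 ± 0.325 in mKC and 9.25 ± 0.258 in eKC (log2, SD, n = 3 each), a mean within-animal difference of -5.14 ± 0.488 (mKC minus eKC, SD, n = 3) or 35.3-fold. The mKC intensity was 1.92%, 3.59% and 3.30% of the eKC intensity in animals 1, 2 and 3, which corresponds to 52.0-fold, 27.8-fold and 30.3-fold. With animal 2 left out the mean difference was -5.31. Animal 1 had both the lowest mKC value and the highest eKC value of this gene and therefore the widest gap. The mKC values lay close to the lower quartile of the arrays and the table has no detection call, so it is unknown whether Cd209f was detected in mKC at all, and the fold is uncertain.

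**Figure D1:**
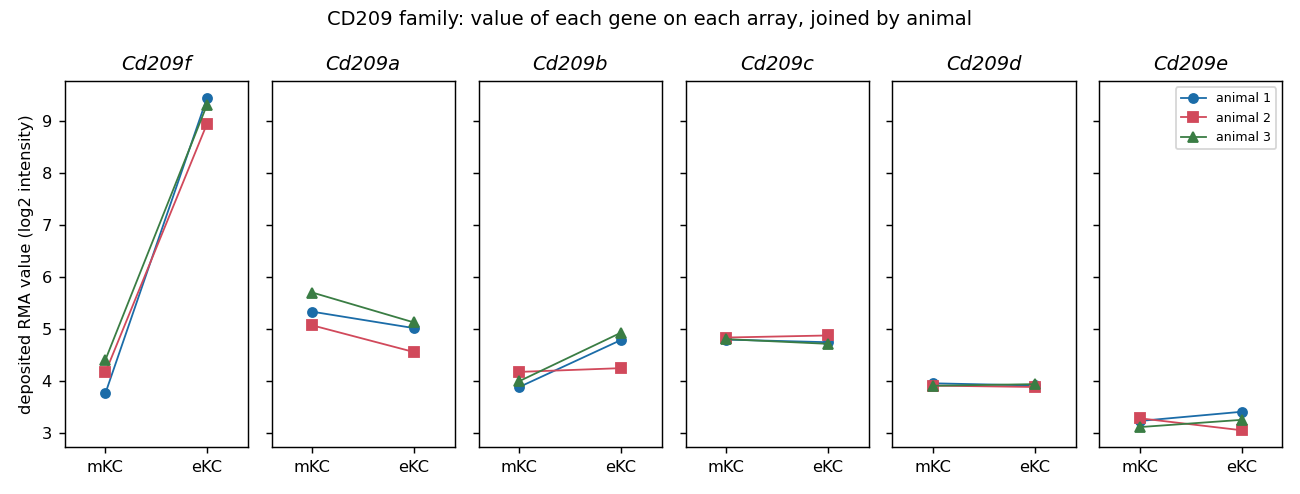
Each panel plots 1 CD209 gene, with the deposited log2 intensity on the vertical axis, mKC on the left and eKC on the right, and 1 line per animal. Cd209f runs at 3.76 to 4.40 in mKC and 8.96 to 9.46 in eKC, while the other 5 genes stay between 3.05 and 5.70 in both populations.

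The place of Cd209f among all rows varied with the animal. By the mean of 3 animals its difference of -5.14 lay between the row ranked 1, ENSMUSG00000055546, with a difference of -5.51, and the row ranked 3, ENSMUSG00000036103, with -4.70. Within single animals Cd209f ranked 1 of 27835 in animal 1, 2 in animal 2 and 3 in animal 3. The row ranked 1 by the mean had means of 6.83 in mKC and 12.34 in eKC, and the row ranked 3 had 5.22 in mKC and 9.92 in eKC. Cd209f varied more between animals than most rows. Its SD was exceeded by 4.96% of features in mKC and by 11.3% in eKC, where the median SD of all features was 0.117 and 0.120.

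**Figure D2:**
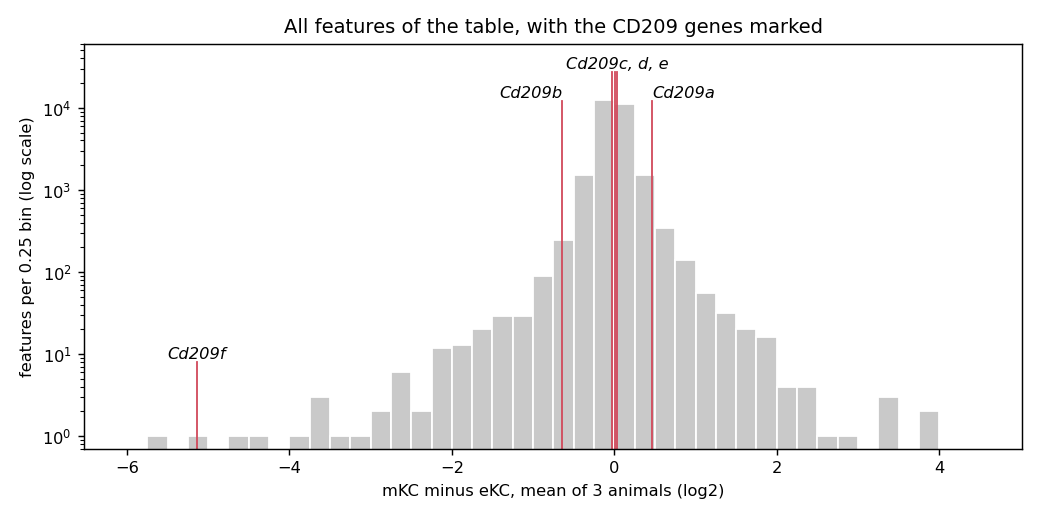
The histogram counts all 27835 features by their mean difference, mKC minus eKC in log2 units, in bins of 0.25 with a logarithmic count axis, and red lines mark the CD209 genes. Cd209f at -5.14 stands in the far left tail with single features on either side of it, Cd209b at -0.64 and Cd209a at 0.47 stand on the shoulders, and Cd209c, Cd209d and Cd209e stand at the centre.

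The 5 relatives of Cd209f were compared to ask whether they too differed between the populations. None of the 5 passed the threshold of an adjusted p under 0.05 (0 of 5, limma with animal as a block), where 1.82% of all 27835 features did, 0.995% higher and 0.823% lower in mKC. With so low a share over all features, a count of 0 of 5 says little about the family. At an unadjusted limma p under 0.05 there were 2 of 5, Cd209a on the higher side and Cd209b on the lower side, where 11.7% of all features reached that level. The differences of the 5 relatives ran from -0.64 to 0.47 with a median of 0.01, beside a median of -0.01 over all features (log2, mKC minus eKC). Their largest difference was 1.56-fold in size, beside 35.3-fold for Cd209f. The eKC means of the relatives lay between 3.23 and 4.90, below the array medians of 5.21 to 5.28, where that of Cd209f was 9.25. From that level a fall as large as that of Cd209f could not be seen, so the sizes are not comparable. Without animal 2 the count was 1 of 5, through Cd209b, and 369 of all features (1.33%) passed in that fit. That fit leaves out the animal with the smallest Cd209b difference (-0.07). The count was 0 of 5 without animal 1 and 0 of 5 without animal 3.

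Cd209a, the gene used as a marker of monocyte-derived dendritic cells, was slightly higher in mKC in every animal without passing the threshold. It measured 5.33, 5.07 and 5.70 in mKC of animals 1, 2 and 3, against 5.01, 4.55 and 5.12 in eKC (log2 intensity). The eKC values and the mKC value of animal 2 lay below the array medians. Without detection calls it is unknown whether Cd209a was detected in either population. The groups overlapped, because the mKC value of animal 2 lay below the eKC value of animal 3 (8.91% of all features were higher in mKC without overlap), but the animals stood in the same order in both populations. The within-animal differences were 0.32, 0.51 and 0.58, with a mean of 0.47 ± 0.0994 (SE), a 1.38-fold difference with a 95% interval of 1.17 to 1.64 (limma, adjusted p = 0.107). A higher mKC value in 3 of 3 animals was seen in 16.1% of all features, and 4.43% of features had a larger difference in either direction. With 3 pairs the smallest two-sided p of an exact sign-flip test is 0.25. Any feature with the same sign in all 3 animals reaches it, as Cd209a and Cd209b did, so it adds nothing to the count of signs. Without animal 2 the mean difference was 0.45, and the adjusted p in limma was 0.248.

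Cd209b, the SIGNR1 lectin of splenic marginal zone macrophages, was lower in mKC by a margin that depended on the animal. It measured 3.88, 4.17 and 3.99 in mKC of animals 1, 2 and 3, against 4.79, 4.24 and 4.93 in eKC (log2 intensity). The mKC values lay near the lower quartile of the arrays, and the eKC values lay below the array medians. Without detection calls it is unknown whether Cd209b was detected in either population. The groups did not overlap, with every mKC value below every eKC value, which was the case for 8.82% of all features. The within-animal differences were -0.91 in animal 1 and -0.93 in animal 3, but -0.07 in animal 2. A lower mKC value in 3 of 3 animals was seen in 16.9% of all features. The mean was -0.64 ± 0.183 (SE), with a 95% interval of -1.08 to -0.19, and it did not pass the threshold (limma, adjusted p = 0.236). Without animal 2 the mean was -0.92 and the adjusted p in limma was 0.0309, whereas it was -0.50 with an adjusted p of 0.627 without animal 1 and -0.49 with an adjusted p of 0.575 without animal 3. The eKC array of animal 2, which stands apart on component 2, was the lowest of the eKC arrays for Cd209b, and its part in the result was not tested. The spread of Cd209b among eKC arrays was wide, with an SD of 0.361 that only 3.98% of features exceeded, while its SD of 0.147 in mKC was exceeded by 36.6%.

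Cd209c, Cd209d and Cd209e showed no difference that this number of animals could detect. Cd209c measured 4.79, 4.83 and 4.80 in mKC, against 4.74, 4.87 and 4.71 in eKC of animals 1, 2 and 3. Cd209d measured 3.95, 3.91 and 3.90 in mKC, against 3.91, 3.88 and 3.93 in eKC. Cd209e measured 3.23, 3.28 and 3.11 in mKC, against 3.40, 3.05 and 3.25 in eKC. For each of these genes the mKC and eKC ranges overlapped, and the sign of the difference was not the same in all animals. The interval of the mKC over eKC ratio was 0.878 to 1.19 for Cd209c, 0.867 to 1.17 for Cd209d and 0.807 to 1.19 for Cd209e (limma, 95%). The adjusted p-values in limma were 0.938, 0.979 and 0.963 in the same order. Without animal 2 the mean differences were 0.07, 0.01 and -0.16 (log2, mKC minus eKC). Cd209d, whose SIGNR3 product is a close functional counterpart of human DC-SIGN, was also among the steadiest rows between animals, with an SD of 0.0266 in mKC and 0.0272 in eKC that 95.7% and 95.3% of features exceeded. Differences at low intensity are compressed by RMA, and no detection calls come with the values, so these intervals hold for the deposited values and do not bound the change of a transcript near background.

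**Figure D3:**
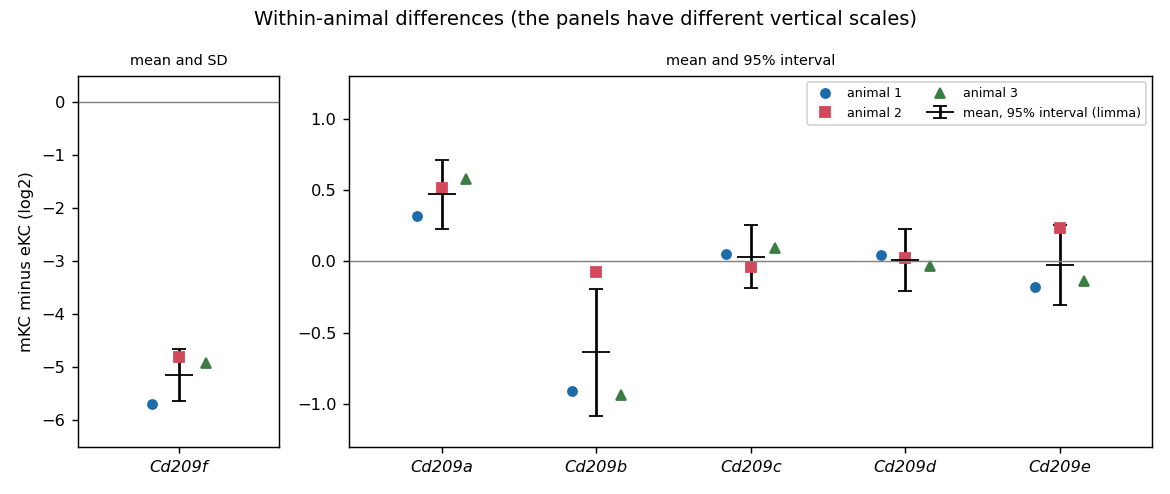
Points give mKC minus eKC (log2) in each animal, for Cd209f in the left panel with its mean and SD, and for the 5 relatives in the right panel with the mean and 95% interval from limma. Cd209f lies between -5.70 and -4.80, Cd209a lies above 0 in all 3 animals, Cd209b lies near -0.9 in animals 1 and 3 but at -0.07 in animal 2, and the intervals of Cd209c, Cd209d and Cd209e span 0.

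The features whose 6 array values were most like those of Cd209f were all lower in mKC, a direction that their selection fixed in advance. They were taken from 232 features other than Cd209f with a mean above the median feature and a difference of at least 1 in size, by Pearson correlation over 6 arrays, and the correlation is a description because the arrays fall into 2 populations that alone make it high. The 5 highest correlations ran from 0.995 to 0.998, and 23 of the 232 features exceeded 0.99. Their differences were -1.01, -1.25, -1.75, -3.78 and -1.91 (log2, mKC minus eKC) in order of correlation. The fourth of them was also the row ranked 5 by size of fall, with means of 7.49 in mKC and 11.27 in eKC. None could be given a symbol.

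**Figure D4:**
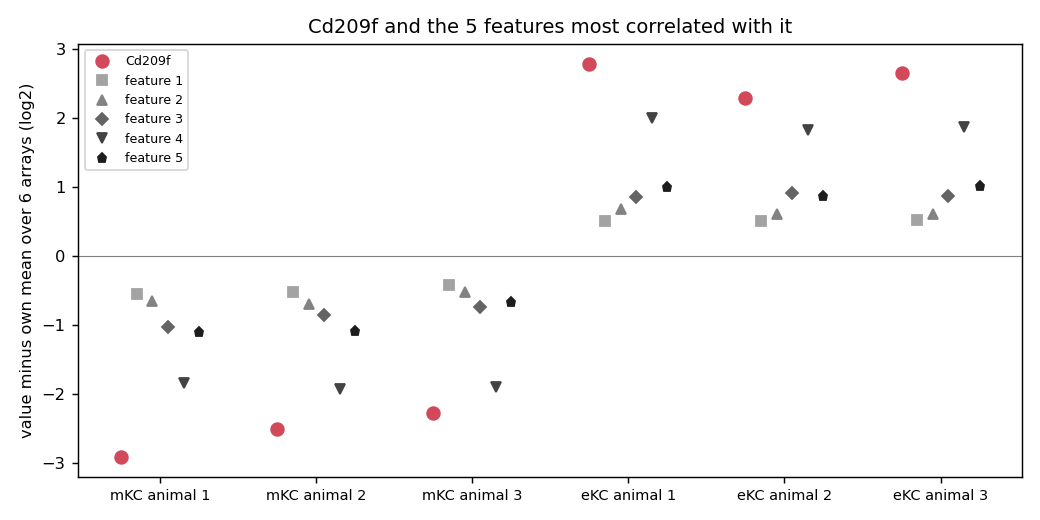
Symbols give the value on each array minus the gene's own mean over 6 arrays (log2), for Cd209f in red and for the 5 features most correlated with it in grey, numbered in order of correlation. All lie below 0 in the mKC arrays and above 0 in the eKC arrays, a pattern for which the 5 features were selected. Cd209f has the widest span, from -2.92 to 2.78.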

How the data were processed

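Expression was measured on 6 arrays. The authors deposited 1 value per Ensembl gene and array, made with RMA per the submitters' processing notes; RMA corrects background, normalizes arrays by quantiles and summarises probes. The deposited values were read as log2 intensities from their range of 2.09 to 14.2. The base of the logarithm, the RMA software and the probe sets behind a row are not stated in those notes. No row was averaged or removed, and 0 identifiers were repeated.

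All 27835 features were fitted as mKC minus eKC with limma 3.58.1 in R 4.3.3 (lmFit, eBayes) on 6 arrays with the animal as a block, because the series' design text pairs the samples by mouse. Two-sided p-values were used, with Benjamini-Hochberg adjustment over all features and a threshold of 0.05. The fit had 2 residual degrees of freedom and 4.21 prior degrees of freedom. Deviations from group means of same-animal arrays correlated at -0.0323, 0.0258 and -0.0188. The number of animals limits the precision.

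Named genes were the 6 members, the rows next to Cd209f in order of fall, and the 5 features most correlated with Cd209f. Lists of other lectins, complement partners, regulators and cell type markers were drawn up by symbol but could not be applied, because 0 of 49997 genes of the reference table carry an Ensembl identifier. The members and lists were chosen with earlier results of these data known. Upstream sequences and gene order come from RefSeq (GRCm38.p6); no build is stated for the array values.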

Additional observations from a re-analysis of the deposited data

How the results depend on the processing

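With 3 animals, the count of features past the threshold (506) and of relatives past it (0) depended on the animals included. Leaving out 1 animal gave 171 to 369 features and 0 to 1 relatives. The count of features was 252 without animal 1 and 171 without animal 3, where 1 residual degree of freedom remains, and the relative that passed was Cd209b without animal 2 (limma, adjusted p = 0.0309). Under the other 8 settings at the same threshold the count was between 473 and 705, and an adjusted p under 0.1 gave 745 features and 0 relatives. With no replicate block, so that arrays were not paired by animal, 608 features and 0 relatives passed, and the block changed no call of a relative. Leave-one-out differences ran from -5.31 to -4.86 for Cd209f, 0.42 to 0.55 for Cd209a, -0.92 to -0.49 for Cd209b, 0.0054 to 0.0705 for Cd209c, -0.0025 to 0.0339 for Cd209d and -0.158 to 0.0457 for Cd209e. The sign of Cd209d turned without animal 1 (-0.0025), and that of Cd209e turned without animal 1 (0.0457) and without animal 3 (0.0271), never past the threshold. Of 48 fits of a relative under an alternative, 1 passed the threshold. Adjusted p in limma, outside the leave-one-out fits, lay between 0.0712 and 0.407 for Cd209a and between 0.125 and 0.246 for Cd209b. With the lowest 30% of features left out, 3 relatives were tested, and with the lowest 50% left out, none was. Intensity over background is unknown, which limits every low value.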
